A study of Mus musculus with 8 samples.

Results

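Genes of the complement system were followed in mouse fibrosarcoma cell lines, where the lines labelled IRF8 KO held more RNA of C3, C1s1, Serping1 and Cd55 than the lines labelled WT. The set was chosen by name and comprised 9 genes: the components C3, C4b, Cfb, C1ra, C1s1 and Masp1 and the regulators Serping1, Cd55 and Cd59a. Of these, 8 were found among the 18768 genes of the count table. Cfb, which encodes factor B of the alternative pathway, had no row and was not analysed here.
Each line came from the tumor of a mouse given methylcholanthrene, a chemical carcinogen, under the skin, and the dissociated tumor cells were passaged in culture until stable. MC010 and MC011 carry the genotype label IRF8 KO, and MC654 and MC659 carry the label WT. IRF8 is a transcription factor of the interferon regulatory factor family, best known from myeloid and B cells. Each line was sequenced as 2 libraries from cultured cells, with no treatment of the cultures named, so that 4 libraries stood against 4 but only 2 lines against 2. Each line stands for 1 tumor, so the label and the other differences between tumors cannot be told apart. The labels do not say whether the 2 libraries of a line came from separate cultures, and the ages of the mice are not given in the sources used here. By the study's account the WT mice were of the C57BL/6 strain. The p-values below for differences between lines measure the spread between the 2 libraries of a line, which may be technical. Those for differences between labels measure the spread among the 4 libraries of a label, which includes the difference between its 2 lines. The main test treats these 4 libraries as independent, although they come from only 2 lines.
The libraries held between 74063616 and 116206078 counts. Levels are given as CPM, the counts of a gene per 1000000 counts of its library, with library sizes adjusted by TMM for differences in RNA composition. The floor of a library was set at 3 counts, or between 0.0262 and 0.0408 CPM, and covers counting error only. Differences between labels were tested with edgeR's quasi-likelihood test on 15153 genes, and differences between lines were tested with the same tool on 16703 genes. A gene was called higher or lower at a Benjamini-Hochberg adjusted p under 0.05 and a log2 difference above 0.59 in size. The targeted gene, Irf8, had 442 and 347 counts in MC010, 32 and 10 in MC011, 1 and 2 in MC654, and 1 and 0 in MC659. Irf8 RNA thus went against the labels, and every direction below follows the labels only. The adjusted p of Irf8 was 0.00570 from edgeR. Irf8 passed the filter on low counts only through the libraries labelled IRF8 KO and had to differ, so this value is a description. By the study's account, PCR genotyping of genomic DNA gave each line the genotype of its label. Counts per gene do not show which exons of Irf8 were read or whether the RNA encodes an intact protein. The lines had the RNA of mesenchymal cells, with Vim, the gene of the filament protein vimentin, between 4532 and 7384 CPM.

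Complement is a cascade of proteases and surface-binding proteins that tags cells for clearance, recruits leukocytes and can form a lytic pore in a membrane. The C1r and C1s proteases of the classical pathway and the MASP proteases of the lectin pathway cleave C4 and C2, and all routes meet in the cleavage of C3. The cascade is restrained in body fluids by the C1 inhibitor and on cell surfaces by CD55, which takes apart the C3-cleaving enzymes, and by CD59, which blocks the pore. Hepatocytes make most of the circulating components, and fibroblasts, macrophages and tumor cells are known to make some of them locally.

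The promoters of the members that the comparisons turn on are shown first, each as the 250 bases before the start in RefSeq's GRCm38.p6 annotation, read 5′ to 3′ on the gene's strand. Such windows were at hand for 5 of the 9 members. Shown are C3 and C1s1, the components that differed between the labels, Cd55, a regulator without a count in the WT lines, and Cd59a, the regulator that went the other way in MC011. Capitals mark a match to a motif searched on both strands.
C3, chr17:57228137-57228386, minus strand: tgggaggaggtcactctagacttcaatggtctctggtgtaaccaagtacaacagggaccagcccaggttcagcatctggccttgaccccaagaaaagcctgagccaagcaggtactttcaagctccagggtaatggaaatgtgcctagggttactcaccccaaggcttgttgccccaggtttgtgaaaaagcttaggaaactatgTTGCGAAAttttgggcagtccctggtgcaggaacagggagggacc
C1s1, chr6:124542360-124542609, minus strand: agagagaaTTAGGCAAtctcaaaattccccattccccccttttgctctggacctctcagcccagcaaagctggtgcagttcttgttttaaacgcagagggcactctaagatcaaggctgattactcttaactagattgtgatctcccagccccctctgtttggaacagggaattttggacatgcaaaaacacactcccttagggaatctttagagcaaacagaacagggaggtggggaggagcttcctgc
Cd55, chr1:130462745-130462994, minus strand: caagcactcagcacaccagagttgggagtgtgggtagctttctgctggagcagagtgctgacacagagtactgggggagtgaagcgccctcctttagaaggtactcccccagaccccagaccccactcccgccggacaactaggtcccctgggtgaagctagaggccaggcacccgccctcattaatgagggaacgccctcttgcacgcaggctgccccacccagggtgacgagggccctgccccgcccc
Cd59a, chr2:104095551-104095800, plus strand: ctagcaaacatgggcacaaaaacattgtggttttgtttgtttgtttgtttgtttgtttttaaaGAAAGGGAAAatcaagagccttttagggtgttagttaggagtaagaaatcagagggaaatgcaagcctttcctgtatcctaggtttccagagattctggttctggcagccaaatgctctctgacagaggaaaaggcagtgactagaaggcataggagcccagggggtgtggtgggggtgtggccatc
Of the letters searched, where N is any base, TTGCNNAA is known to be bound by C/EBP factors. It was found in C3 as TTGCGAAA at 45 bases before the start. In C1s1 the match lay on the opposite strand, at 242 bases before the start, and appears as TTAGGCAA on the strand shown. RefSeq gives C1s1 a second start, and the window before that one, chr6:124542322-124542571, held no match to any of the 4 motifs. TTGCNNAA was also held by 9.56% of all 32851 windows of the same length. GAAA followed after any 2 bases by another GAAA, which interferon regulatory factors are known to bind, was found in Cd59a as GAAAGGGAAA at 187 bases before the start and in 2.98% of all windows. The STAT-like letters TTCNNNGAA, held by 7.02% of all windows, and the NF-kB-like letters GGG followed after any 3 bases by TTCC, held by 4.65%, were not in the 4 windows shown. The Cd55 window held none of the 4 motifs and was the richest in G and C of those shown, at 64.0% with 8 CpG, against 52.0% with 1 CpG in C3, 48.0% with 1 in C1s1 and 44.8% with 0 in Cd59a. The median of all windows was 52.4% with 6 CpG. A match describes the letters of a window and not a site in use.

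C3 had the largest difference between the labels among the members with counts above the floor in every library, and it differed between all 4 lines. C3 is the protein on which the complement pathways converge. Its gene (ENSMUSG00000024164) lies on the minus strand of chromosome 17 of mm10, from 57203970 to 57228136. It had 18.9 and 17.03 CPM in MC010, 72.4 and 73.6 in MC011, 1.34 and 0.836 in MC654, and 2.92 and 2.18 in MC659. All libraries labelled IRF8 KO were above all libraries labelled WT, and the libraries of MC011 were the highest. The mean was 45.5 ± 31.8 CPM (SD, n = 4 libraries) under the label IRF8 KO and 1.82 ± 0.921 CPM (SD, n = 4 libraries) under the label WT, and the log2 fold change was 4.64 ± 0.68 (SE) with an adjusted p of 0.00137 from edgeR. The spread within the label IRF8 KO came from the difference between its lines, where MC011 had 4.06 times the mean level of MC010. Within the label WT, MC659 had 2.34 times the level of MC654. Each step in the order MC011, MC010, MC659 and MC654 passed the thresholds, and this same order of line means was found in 5.64% of all genes.

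C1ra and C1s1, the genes of the proteases that form the C1 complex with C1q, lie tail to tail on chromosome 6, with 6901 bases between their 3′ ends. C1s1 differed between the labels and C1ra was not called. C1s1 (ENSMUSG00000038521, minus strand, 124530345 to 124542359 of mm10) had 20.2 and 19.8 CPM in MC010, 56.2 and 58.4 in MC011, 5.43 and 5.64 in MC654, and 14.1 and 13.4 in MC659. The labels did not overlap for C1s1, although MC010 stood close above MC659. The means were 38.6 ± 21.5 and 9.66 ± 4.77 CPM (SD, n = 4 libraries each) for the labels IRF8 KO and WT. The log2 fold change of C1s1 was 2.00 ± 0.51 (SE), with an adjusted p of 0.0168 from edgeR. The call was lost without MC011, at 1.04 with an adjusted p of 0.106, and without MC654, at 1.48 with an adjusted p of 0.141.
C1ra (ENSMUSG00000055172, plus strand, 124512405 to 124523443 of mm10) had 9.43 and 8.83 CPM in MC010, 24.0 and 23.9 in MC011, 6.78 and 7.25 in MC654, and 11.1 and 11.6 in MC659. MC011 stood above the other lines, and MC010 lay between the WT lines, so the labels overlapped. The log2 fold change of C1ra was 0.85 ± 0.39 (SE), with an adjusted p of 0.126 from edgeR. Without MC010 it was 1.363 with an adjusted p of 0.00201, and without MC011 it was -0.015 with an adjusted p of 0.959. The genes have close copies, and of the stretches of 50 bases in their annotated transcripts, C1ra shares 48.0% with C1rb and C1s1 shares 21.8% with C1s2. C1s2 had 97 counts over the 8 libraries and C1rb had no row, and how reads from the shared stretches were divided is not known.

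C4b was detected in MC011 and was at the floor elsewhere. C4 is the protein cleaved by C1s and the MASP proteases, and its fragment joins the enzyme that cleaves C3. The gene (ENSMUSG00000073418) lies on the minus strand of chromosome 17 of mm10, from 34728380 to 34743882. It had 258 and 215 counts in MC011, 1 and 0 in MC010, 0 and 0 in MC654, and 1 and 1 in MC659. In CPM, the libraries of MC011 had 2.68 and 2.72. As only 1 line carried it, C4b fell below the filter of the comparison between labels, where the libraries overlapped and an exact two-sided permutation test over the 8 libraries gave p = 0.343. It entered the comparison between lines only through MC011, where it had to differ, so its call there is not read as support. C4b shares 34.6% of its stretches of 50 bases with C4a, 65209 bases away. C4a had between 48 and 147 counts in every library, with no excess in MC011, at 119 and 82.

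Masp1 stood out in MC011, and the other lines lay close together. MASP1 is a protease of the lectin pathway, and the gene also encodes other proteins by alternative splicing, which counts per gene do not separate. Masp1 (ENSMUSG00000022887, mm10 chromosome 16, minus strand, 23449417 to 23520815) had 14.9 and 14.9 CPM in MC010, 31.4 and 31.2 in MC011, 16.5 and 17.5 in MC654, and 15.3 and 16.1 in MC659. The libraries of MC010 were the lowest and those of MC011 the highest, so the label IRF8 KO lay on both sides of the WT libraries. The log2 fold change by label was 0.50 ± 0.27 (SE), with an adjusted p of 0.191 from edgeR. Without MC010 it was 0.92 with an adjusted p of 3.22e-06, and without MC011 it was -0.14 with an adjusted p of 0.162. Rtp4, with 12043 counts over the 8 libraries, and Gm45338, with 420, overlap the 5′ end of Masp1 on the opposite strand, and the strand setting of the counting is not given in the sources used here.

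**Figure D1:**
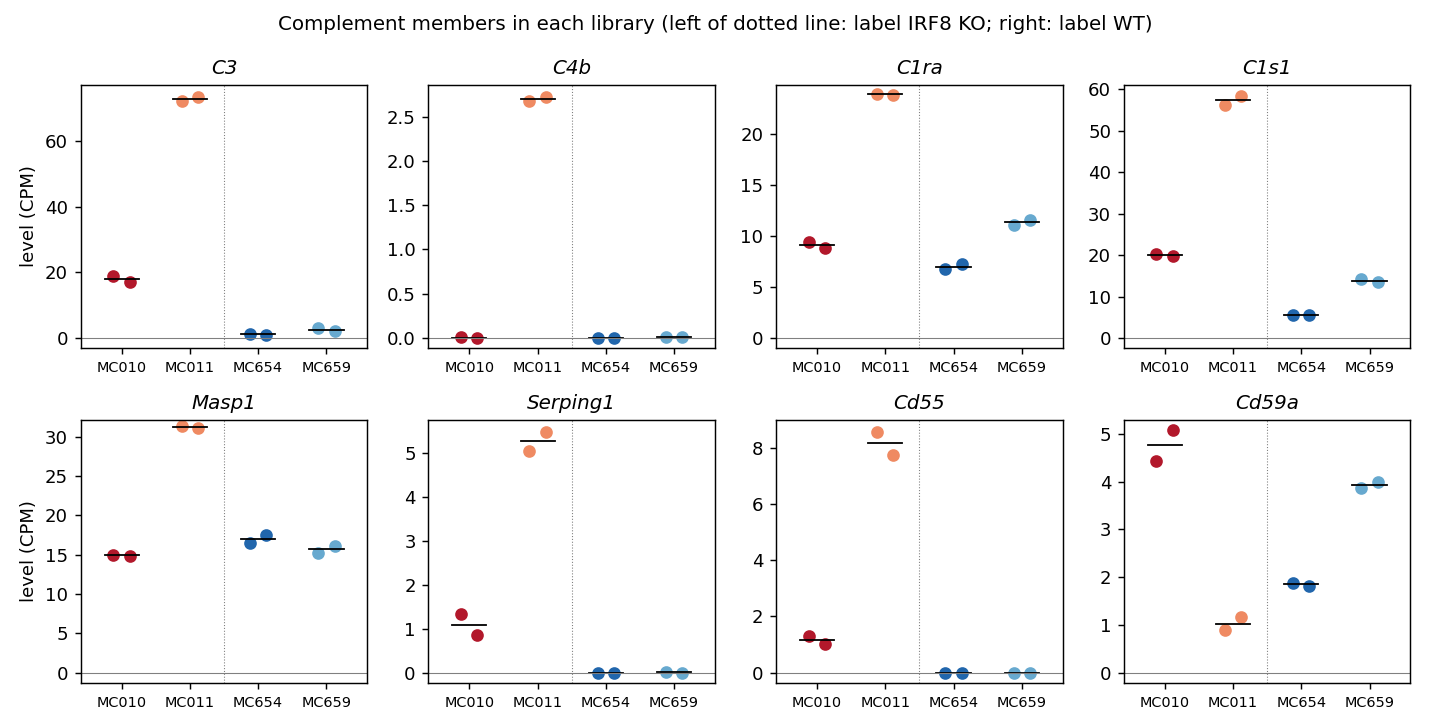
Level in CPM (vertical axis, linear, its own scale in each panel) of the 8 members with a row, with a point for each of the 2 libraries of a line and a bar at the line mean. Lines labelled IRF8 KO are left of the dotted line and WT lines right of it. MC011 was highest in 7 panels and lowest for Cd59a, and Serping1 and Cd55 lay at or below the floor in the WT lines.

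The regulators did not move as a group. Serping1 and Cd55 were present in the lines labelled IRF8 KO and at the floor in the WT lines, while Cd59a was expressed in all lines. Serping1 (ENSMUSG00000023224, mm10 chromosome 2, minus strand, 84765387 to 84775444) encodes the C1 inhibitor, which inactivates C1r, C1s and the MASP proteases. It had 152 and 63 counts in MC010 and 488 and 434 in MC011, against 0 and 0 in MC654 and 1 and 0 in MC659. That was 1.33 and 0.857 CPM in MC010 and 5.06 and 5.49 CPM in MC011, with no overlap between the labels. The adjusted p by label was 0.000435 from edgeR. Serping1 passed the filter only through the libraries labelled IRF8 KO and had to differ, so this value is a description. From 1137 counts against 1, the ratio was 1085, with a 95% counting interval from 194 to 42889. MC011 had 4.59 times the level of MC010, with a counting interval from 3.96 to 5.35.
Cd55 (ENSMUSG00000026399, mm10 chromosome 1, minus strand, 130439027 to 130462744) had 150 and 76 counts in MC010, 826 and 612 in MC011, and 0 in each of the 4 WT libraries. Its level was 1.31 and 1.03 CPM in MC010 and 8.57 and 7.75 CPM in MC011. Against a floor of 3 counts over the 4 WT libraries, Cd55 was at least 529-fold higher under the label IRF8 KO. By line, it was at least 947-fold higher in MC011, and in MC010 the bound was 139-fold. The adjusted p by label was 0.00519 from edgeR. Cd55 also passed the filter only through the libraries labelled IRF8 KO, so this value is a description. MC011 again exceeded MC010, by 6.81 times with a counting interval from 5.92 to 7.88. Of 4801 stretches of 50 bases in its transcripts, Cd55 shares 384 with Cd55b, which had no row.
Cd59a (ENSMUSG00000032679, mm10 chromosome 2, plus strand, 104095801 to 104115354) had 4.44 and 5.09 CPM in MC010, 0.892 and 1.17 in MC011, 1.88 and 1.82 in MC654, and 3.86 and 4.00 in MC659. It was the member with its lowest level in MC011, and its highest was in MC010. The means were 2.90 ± 2.18 CPM (SD, n = 4 libraries) for the label IRF8 KO and 2.89 ± 1.20 CPM (SD, n = 4 libraries) for the label WT. The log2 fold change was 0.00 ± 0.61 (SE), with an adjusted p of 0.999 from edgeR, and the near equality of the means hid lines on both sides. Without MC010 the log2 fold change of Cd59a was -1.51, with an adjusted p of 0.0118.

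By label, 4 of the 7 members tested were higher and 0 were lower, where 13.7% of all 15153 genes were higher and 8.72% lower. The members called were C3, C1s1, Serping1 and Cd55, and their libraries did not overlap between the labels, a pattern with all libraries labelled IRF8 KO on top in 22.1% of all genes. The median log2 fold change of the 7 was 2.00, against 0.02 over all genes. Serping1 and Cd55 passed the filter only through the lines labelled IRF8 KO, so they had to differ. The count and the median of the 7 are therefore a description and are not read against all genes. When the counts of each line were added, which leaves 2 lines against 2, edgeR called 0 of the 7, with adjusted p of 0.120 for C3, 0.236 for C1s1, 0.0894 for Serping1 and 0.128 for Cd55, and 3 of the 7 (C3, Serping1 and Cd55) had an unadjusted p under 0.05, as did 22.2% of all genes. With the line as a random block, limma called 3 higher, beside 6.84% of all genes, and C1s1 was the one lost, at an adjusted p of 0.0505. Without MC010, where C4b also passed the filter, edgeR called 7 members higher and Cd59a lower, beside 16.6% and 12.8% of all genes. In that fit C4b, Serping1 and Cd55 passed the filter only through MC011 and had to differ. The count without MC010 is therefore a description and is not read against all genes.

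**Figure D2:**
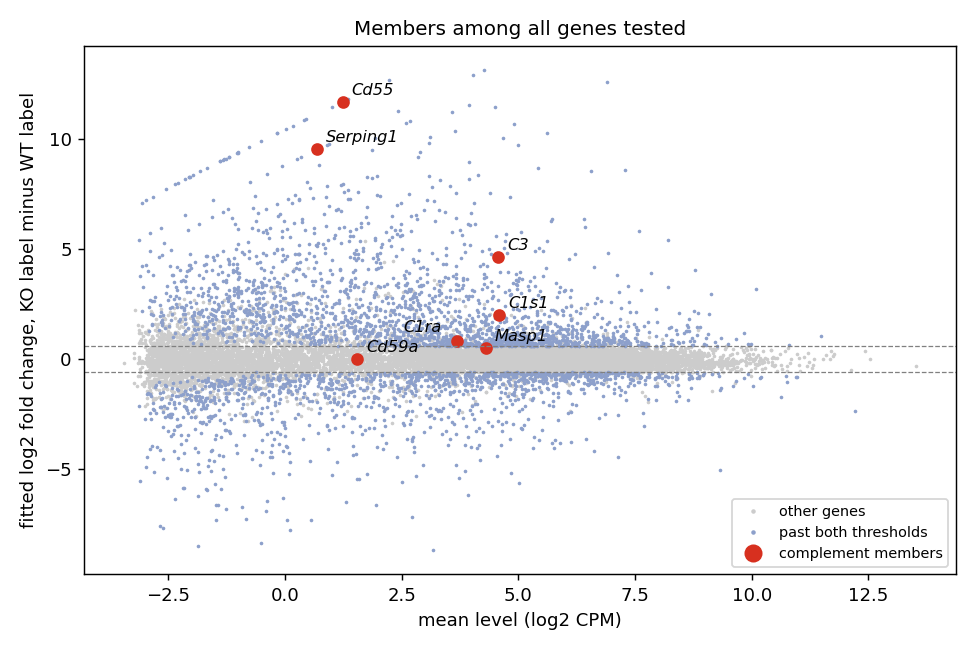
Log2 fold change of the libraries labelled IRF8 KO against those labelled WT (vertical axis) by mean log2 CPM (horizontal axis) for all genes tested by edgeR, with the 7 members tested named and dashed lines at 0.59 in either direction. C3, C1s1, Serping1 and Cd55 passed both thresholds, C1ra lay above the fold threshold without passing the test, and Cd59a lay at 0.00. The heights of Serping1 and Cd55 depend on the prior count, since their WT libraries were at the floor.

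The lines showed what the labels averaged. Each line labelled IRF8 KO was compared with the mean of the log levels of MC654 and MC659, so both comparisons share the WT libraries. In MC011, 7 of the 8 members were higher and 1 was lower, where 18.4% of all 16703 genes were higher and 12.9% lower. In MC010, 5 were higher and 0 were lower, where 20.6% of genes were higher and 16.5% lower. These counts hold members that passed the filter only through lines labelled IRF8 KO and had to differ, namely Serping1 and Cd55 in both and C4b in MC011. They are a description and are not read against the shares of all genes. Of the other 5 members, C3, C1ra, C1s1 and Masp1 were higher and Cd59a was lower in MC011, and C3, C1s1 and Cd59a were higher in MC010.
C3 was 3.44 ± 0.11 (SE) higher on the log2 scale in MC010 and 5.45 ± 0.10 higher in MC011, with edgeR adjusted p of 2.93e-14 and 4.14e-17. C1s1 was 1.20 ± 0.06 higher in MC010 and 2.71 ± 0.06 higher in MC011, with adjusted p of 1.24e-11 and 1.46e-16. C3 and C1s1 thus rose in both lines. Serping1 and Cd55 were at the floor in the WT lines and entered the fit only through the lines labelled IRF8 KO, so their calls in both lines are given as a description.
C1ra was 1.42 ± 0.07 (SE) higher in MC011, with an edgeR adjusted p of 1.19e-11, and its difference in MC010 was 0.04 ± 0.07, with an adjusted p of 0.686. Masp1 was 0.93 ± 0.06 higher in MC011, with an adjusted p of 4.11e-10, and its difference in MC010 was -0.13 ± 0.06, with an adjusted p of 0.0715. These proteases were thus called in MC011 alone of the lines labelled IRF8 KO. Cd59a was 0.82 ± 0.14 higher in MC010 and -1.40 ± 0.17 in MC011 on the same scale, with edgeR adjusted p of 5.09e-05 and 1.33e-06, and so was called in opposite directions.

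**Figure D3:**
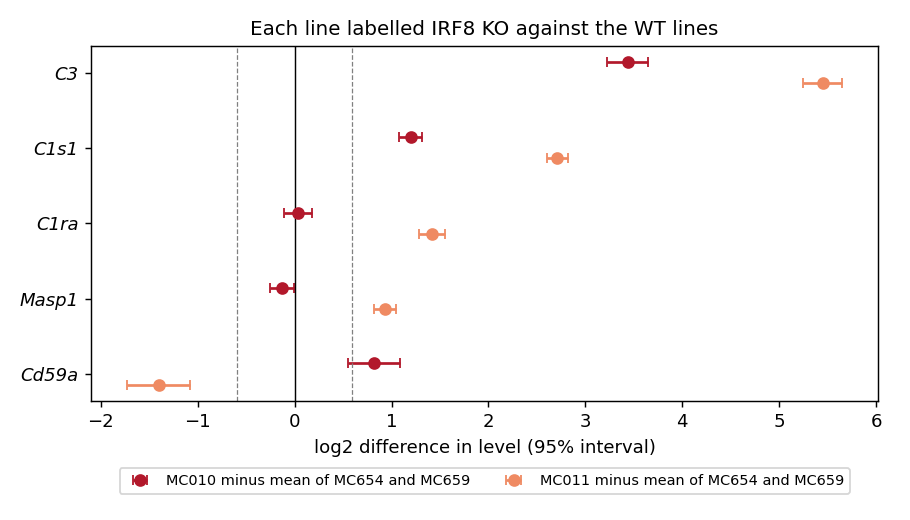
Log2 difference of MC010 and of MC011 from the mean of the WT lines for the 5 members with WT counts above the floor, with 95% intervals, and dashed lines at the fold threshold of 0.59. C3 and C1s1 lay above 0 in both lines, C1ra and Masp1 lay clearly above 0 in MC011 only, and Cd59a lay on opposite sides of 0.

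The direct comparison of the lines that share a label gave the test of these differences. Between MC010 and MC011, 7 members were lower in MC010, with C4b among them, and 1 was higher, where 16.3% of all genes were lower and 16.3% higher. C4b passed the filter only through MC011 and had to be lower in MC010, so this count is a description. C3 was -2.01, C1s1 -1.51, C1ra -1.38 and Masp1 -1.06 on the log2 scale in MC010 against MC011, with edgeR adjusted p between 4.04e-12 and 9.77e-10. Cd59a was 2.22 higher in MC010, with an adjusted p of 1.32e-08.
Between MC654 and MC659, 4 members were lower in MC654 and 0 were higher, where 3.42% of all genes were lower and 1.16% higher. They were C3 at -1.23, C1s1 at -1.32, C1ra at -0.69 and Cd59a at -1.08 on the log2 scale, with edgeR adjusted p between 6.73e-09 and 0.000308. The WT lines thus also differed in these members, with MC659 above MC654. Masp1 was 0.12 with an adjusted p of 0.346.
The order of the lines was not the same for every member. For C1s1 the neighbours MC010 and MC659 differed by 0.54 on the log2 scale with an edgeR adjusted p of 2.51e-06, short of the fold threshold. For C1ra the order was MC011, MC659, MC010 and MC654, and MC010 was -0.31 from MC659 and 0.38 from MC654, both short of the fold threshold. For Masp1, MC654, MC659 and MC010 followed MC011 and none of the 3 differed from another past the thresholds. For Cd59a, MC010 and MC659 led with a difference of 0.27 and an edgeR adjusted p of 0.139, and MC654 stood above MC011, which was -0.86 from it with an adjusted p of 0.000937. The highest line mean was in MC011 for 7 of the 8 members, C4b among them, and for 28.2% of all genes. C4b passed the filter only through MC011, so its highest mean had to lie there and this count is a description.

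Levels were compared between members only per length, as CPM per 1000 bases of annotated exon. On this scale C1s1 led in MC010 at 6.39, in MC011 at 18.3 and in MC659 at 4.41, and C1ra led in MC654 at 2.35, with C1s1 next at 1.77. C3 came next after C1s1 in the lines labelled IRF8 KO, at 3.50 in MC010 and 14.2 in MC011, and had rank 5 in the WT lines, at 0.212 in MC654 and 0.496 in MC659. C1s1 was thus at rank 1 or 2 in every line, and C3 stood above C1ra in the lines labelled IRF8 KO and below it in the WT lines. Among the regulators, Cd59a had 2.63 in MC010, above Serping1 at 0.470 and Cd55 at 0.242. In MC011 this order was turned, with Serping1 at 2.27, Cd55 at 1.68 and Cd59a at 0.568.

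The rest of the system was read from a list of 54 other complement genes, of which 27 had a row and 19 passed the filter. By label, 5 were higher and 1 was lower, beside 13.7% and 8.72% of all genes, and the median log2 fold change of the 19 was 0.43. Of the genes that were higher, Fcna, Susd4 and C3ar1 passed the filter through the libraries labelled IRF8 KO. They would not have passed on the WT libraries, so they had to differ. Their values, the count of genes that were higher and the median are a description. The genes of C1q (C1qa, C1qb and C1qc), of properdin (Cfp), of factor D (Cfd), of factor I (Cfi) and of C6, C7 and C8 (C8a and C8b) had no row and were not analysed here.
Clu encodes clusterin, a secreted chaperone that also blocks the pore, and was at 350.1 CPM in MC010 and 27.5 CPM in MC011 on average, against 0.324 to 0.706 CPM in the WT libraries. Fcna, the gene of the lectin pathway protein ficolin A, was at 7.70 CPM in MC010 and 0.732 in MC011, against 0 to 0.0778 in the WT libraries. Both were higher by label, with an edgeR adjusted p of 0.00114 for Clu. Both were also higher in MC010 than in MC011, the reverse of C3, by 3.67 on the log2 scale for Clu and 3.39 for Fcna, with edgeR adjusted p of 2.20e-13 and 3.99e-09.
Susd4, a membrane regulator, was at 0.640 CPM in MC010 and 1.53 CPM in MC011, against at most 0.0667 CPM in the WT libraries. C3ar1 encodes the receptor of the C3a fragment of C3, and stood at 2.39 CPM in MC010 and 2.28 CPM in MC011, against at most 0.156 CPM in the WT libraries. Its log2 difference between MC010 and MC011 was 0.07 with an edgeR adjusted p of 0.855. The call of Cr2, a complement receptor, rested on MC010 at 1.99 CPM, since MC011 at 0.0904 CPM lay within the WT range of 0.0445 to 0.125 CPM. Itgb2, the gene of a chain of the leukocyte receptors for C3 fragments, was the gene that was lower, at 0.227 to 1.04 CPM against 2.87 to 4.06 CPM, with an adjusted p of 0.00577.
C1rl, a gene related to C1ra, had the direction of C1ra between the lines labelled IRF8 KO, at -1.61 on the log2 scale in MC010 against MC011 with an edgeR adjusted p of 1.25e-08.

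**Figure D4:**
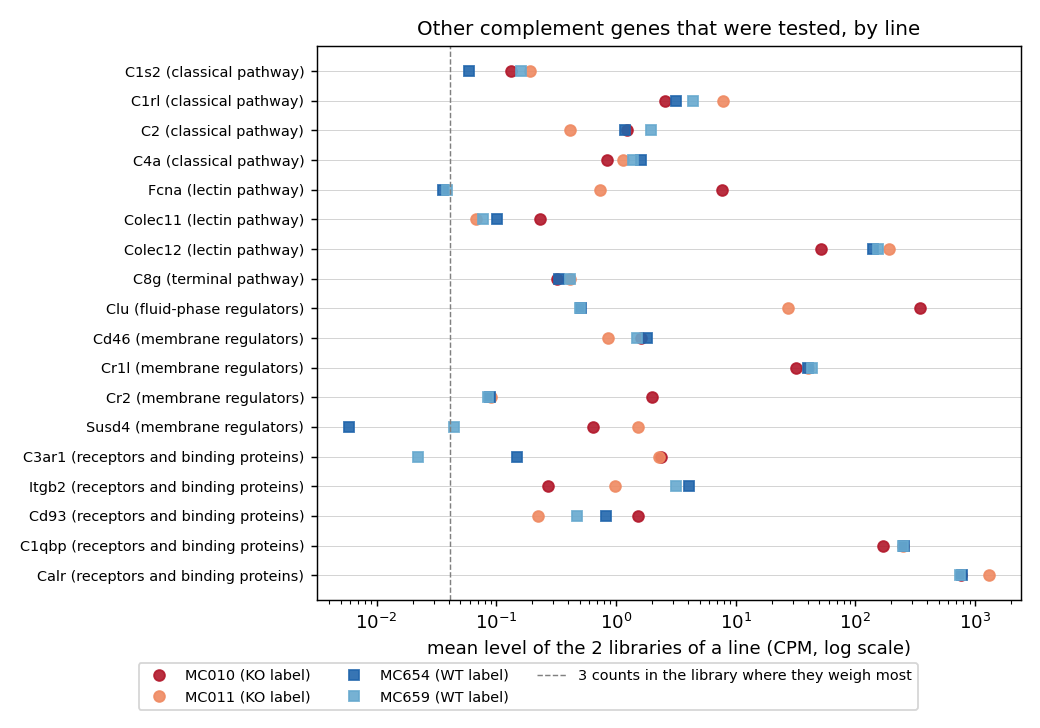
Mean CPM of the 2 libraries of each line (horizontal axis, log scale) for other complement genes tested (listed on the vertical axis), with circles for lines labelled IRF8 KO, squares for WT lines and a dashed line at 3 counts. Clu and Fcna lay farthest right in MC010, at 350.1 and 7.70 CPM, and C1rl in MC011, while MC010 and MC011 lay together for C3ar1.

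Markers of other cell types that make complement were read beside these values. Of 10 leukocyte and macrophage markers, Adgre1, Itgam, Lyz2, Cd3e and Fcgr1 had no row. The summed level of the other 5 was 16.99 to 23.6 CPM in the libraries labelled IRF8 KO and 16.4 to 16.6 CPM in those labelled WT, with Cd14 called higher and Csf1r called lower. Ptprc, which marks leukocytes, was at most 0.177 CPM in any library. Of 7 hepatocyte markers, Alb, Ttr, Serpina1a, Fgb and Ahsg had no row, and the sum of the other 2 was 0.708 to 0.882 CPM against 0.647 to 0.995 CPM. The summed level of 10 fibroblast markers was 9885 to 10671 CPM in the libraries labelled IRF8 KO and 14703 to 16666 CPM in those labelled WT. The lower sum was carried by Fn1, the gene of fibronectin, at a mean of 1587 against 7973 CPM, and the list did not move one way, as Pdgfra, Thy1 and S100a4 were called higher, Fn1 and Acta2 lower and the other 5 neither. The summed level of 5 endothelial markers was 0.633 to 1.01 CPM against 0.703 to 0.887 CPM. By label, Tek was called higher, at 0.122 to 0.405 CPM against 0.0227 to 0.0667 CPM, and Pecam1, Cdh5 and Vwf were not called. Tek passed the filter only through the libraries labelled IRF8 KO, so its call is a description. Of 5 epithelial markers, 4 had a row, with sums of 33.3 to 565.2 CPM against 114 to 129 CPM. The wide range came from the keratin genes Krt8, at 283.7 CPM in MC010 and 1.29 in MC011, and Krt18, at 264.0 and 31.4 CPM. By label, Epcam was called higher, and Cdh1, Krt8 and Krt18 were not called. The part of any of these cell types in the complement values was not tested. In bulk RNA, fewer cells that express a gene and less RNA per cell cannot be told apart.

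The members were also compared with each other and with all genes across the 8 libraries, by Pearson's r of log2(CPM + 0.1), as a description of 4 lines with 2 libraries each. Serping1 and Cd55 had r = 0.998 with each other, and C3 had r = 0.982 with Serping1 and 0.980 with Cd55. Serping1 and Cd55 lay at or below the floor in the WT libraries and passed the filter only through those labelled IRF8 KO. A high r for them was largely set by that split, so each r of theirs, also below, is a description only. C3 and C1s1 had r = 0.957, and C1ra and C1s1 had r = 0.920. Cd59a was negative with each of the 6 members it was compared with (C4b was left out), with r = -0.89 against Masp1 as the lowest. Of the 10992 genes compared with C3, 33 reached an r of 0.99, led by Wisp2 at 0.999 and Fzd1 at 0.998. Ly6a at 0.998 and Ccl7 at 0.995 were nearest to C1s1, and Foxc1 at 0.993 was nearest to C1ra. For Masp1 the nearest was Pik3r5 at 0.997, for Serping1 it was Pspc1 at 0.998, for Cd55 it was Zfp623 at 0.999, and for Cd59a it was Oxsm at 0.992. An r of 0.99 was reached by 62 of 10993 genes for Serping1, by 61 for Cd55 and by 1 for Cd59a.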

How the data were processed

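RNA of 4 tumor cell lines was sequenced with a stranded mRNA kit, in 2 libraries for each line. Reads were mapped by the authors with STAR on mm10 (GRCm38.p6) and assigned to genes with HTSeq, and the submitters' processing notes give STAR 2.7.3a and HTSeq 0.11.2. The deposited table holds raw counts per gene and library, which were analysed here. It also holds a signal (counts that the authors divided by size factors of DESeq2) and its mean. The columns of the authors' own comparison hold log2 fold changes and their errors, a Wald score and p-values. None of these was used. The table had 18768 genes with at least 20 counts each over all libraries, and sex-chromosome genes were not analysed here.
The counts were analysed with edgeR 4.0.16 in R 4.3.3, with filterByExpr (minimum count 10) by label (15153 genes) or by line (16703 genes), TMM scaling and the robust quasi-likelihood test, without a block. Standard errors were derived from the fold change and the F statistic. Adjusted p-values are Benjamini-Hochberg values over all genes tested, and genes were called at 0.05 and 0.59 on the log2 scale. Libraries of a line differed by more than counting noise (chi-square per degree of freedom from 8.64 to 15.4). On simulated counts for the comparison of labels, 98 of 100 genes changed by 1 and 100 of 100 changed by 2 on the log2 scale were recovered, with 2 false calls among 14966 genes. For MC010 against MC011, it was 96 and 100, with 5 false calls among 15125 genes. Before the changes, all simulated libraries shared a mean level per gene, with the spread found within lines. The comparison of labels was simulated without differences between the lines of a label, so its figures do not carry over to these data. Alternatives used DESeq2 1.42.0, limma 3.58.1, other scalings, no filter, sums per line, a library-number block, and each library or line left out.
The members, the lists of complement, regulatory and marker genes and the tests were chosen with earlier results of these data known. By the rule for names, the genes named are the members, genes of those lists, and the genes most like a member across the libraries (those with a mean log2 CPM of at least 1). Some listed genes are not reported here on their own and enter only the counts.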

Additional observations from a re-analysis of the deposited data

Results flagged for a closer look

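Among 15 groups of 4 libraries tested for a library far from the others, 1 was found. It was library 1 of MC659 for Serping1, at 0.0113 CPM among WT libraries at 0, which is a single count and lies under the floor. Among libraries at 0, any count would have been flagged. Each group holds 2 lines with 2 libraries each, so no rate by chance is given.
The members differed between the lines that share the label IRF8 KO by edgeR's test of MC010 against MC011. On the log2 scale the differences were -2.01 for C3, -1.38 for C1ra, -1.51 for C1s1, -1.06 for Masp1, -2.24 for Serping1, -2.78 for Cd55 and 2.22 for Cd59a. The fitted difference of C4b was -8.65 and depends on the prior count, since MC010 had 1 count in all. From 473 counts against 1, the ratio of MC011 to MC010 was 507, with a 95% counting interval from 90.5 to 20052.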

How the results depend on the processing

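The 4 members called by label stayed at 4 with each library left out (4 to 4) and numbered 3 to 5 under the other alternatives, except 0 on sums per line and 7 without MC010, where 1 (Cd59a) was also lower. Of those 7, C4b, Serping1 and Cd55 passed the filter only through MC011 and had to differ. The cause of these changes in the counts was not tested. On sums per line there are fewer samples, and the 2 libraries of a line are no longer treated as independent, and these were not told apart. The other complement genes that were higher numbered 0 on sums per line, 1 with the line as a random block in limma, 3 without MC654, 3 without MC659, and 4 to 5 with each library left out. Those that were lower numbered 5 with no filter, 2 with DESeq2, 0 on sums per line, 7 without MC010, 4 without MC011, 0 without MC654 and 1 to 3 with each library left out. Over all genes, 3151 were higher and 2524 lower with no threshold on the fold change, 0 and 0 on sums per line, where 3361 had an unadjusted p under 0.05, and 1037 and 839 with the random block. Without MC011 it was 3159 higher and 2668 lower, without MC654 1222 and 857, without MC659 1185 and 699, and without MC010 2679 and 2056. With each library left out, 1812 to 2222 genes were higher and 1080 to 1434 lower.
C1ra by label was -0.015 and Masp1 -0.14 without MC011. Cd59a, at 0.00 by label, was -0.018 with upper-quartile scaling, -0.0028 with DESeq2's size factors, -0.0026 with a replicate block (the number of the library), -0.0026 with DESeq2, -0.014 on sums per line, -0.33 with the random block, -1.51 without MC010, -0.44 without MC654, and -0.41 to 0.30 with each library left out. C1ra in MC010 against the WT lines was -0.0074 with upper-quartile scaling and -0.026 to 0.081 with each library left out. The labels do not say that a library number is shared between lines, and deviations of same-numbered libraries had r from -0.19 to 0.31 over 6 pairs of lines. With the replicate block, 4 members, 4 other complement genes and 1917 genes in all were higher. In the comparisons between lines, the counts of members called were as reported in every alternative, except that a filter by label removed C4b and left 6 in place of 7 higher in MC011 than in the WT lines and 6 in place of 7 lower in MC010 than in MC011. Levels under 3 counts could not be told from 0 at this depth.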

Other observations

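A list of 22 genes of the signals known to act on complement genes (cytokine receptors, STAT, NF-kB, C/EBP and interferon regulatory factors) was read from the same fit, and all 22 were tested. By label, 6 were higher and 2 were lower in edgeR, beside 13.7% and 8.72% of all genes, and the median log2 fold change was 0.45. Cebpd, a C/EBP factor of the acute-phase response, was at 1.25 to 3.28 CPM in the WT libraries and at 9.42 to 25.1 CPM in the others, with a log2 fold change of 2.86 and an adjusted p of 0.00128. Il1r1, the receptor of interleukin-1, was at 16.3 to 20.1 CPM and 55.8 to 95.6 CPM, in the same order, with a log2 fold change of 2.06 and an adjusted p of 0.000183. Nfkbia, an inhibitor and target of NF-kB, was at 14.1 to 15.0 CPM and 39.3 to 69.4 CPM, with a log2 fold change of 1.90 and an adjusted p of 0.000352. The other genes that were higher were Il6ra at 1.04, Rela at 0.89 and Nfkb2 at 0.59 on the log2 scale.
Irf1, a transcription factor of the interferon response, was among the genes that were lower, at 75.1 to 95.9 CPM in the WT libraries and 49.9 to 53.4 CPM in the others, with a log2 fold change of -0.74 and an edgeR adjusted p of 0.000568. Whether any of these genes acts on the complement genes in these lines was not tested.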
